A study of Mus musculus with 24 samples.

Results

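Regions of liver chromatin that carried an H3K27ac peak in females but not in males, in C57BL/6J mice (B6) as well as in CAST/EiJ mice (CAST), are described here. H3K27ac, acetylation of lysine 27 of histone H3, marks active promoters and enhancers, and was mapped by ChIP-seq in livers of 8-week-old untreated inbred mice. The groups were male B6, female B6, male CAST and female CAST, with 5 livers each and 1 input library per group, and the peaks of a group came as 1 list called on its merged livers. Overlapping peaks (by 1 bp or more) of the 4 lists were joined on the 19 autosomes into 117616 union regions. Of these, 1413 (1.20%) were called in both female lists and in neither male list and are called F-only regions; they were 2.68% of the 52731 regions called in both female lists. The mirror class, called in both male lists only (M-only), held 2779 regions (2.36%), or 4.71% of the 59007 called in both male lists. Titles of the samples gave strain and sex. Another label, for strain, reads CAST for all females and B6 for all males, and so contradicts the titles of 2 of the groups. The regions were chosen by presence or absence of a peak in each list, so their peak scores and fold enrichments are a description. The lists give no read counts, and library depth was not analysed here. With 1 pooled list per group no comparison has a replicate behind it, no test between groups was possible, and intervals on shares (95%, Wilson) cover counting error only.

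Sex differences in mouse liver are set largely by the pattern of pituitary growth hormone release, which is pulsatile in males and nearly continuous in females. The hormone acts on hepatocytes through its receptor and STAT5, and a network of transcription factors, including the female-enriched CUX2 and the male-enriched BCL6, acts with it on sex-biased genes. The genes that it sets apart encode many enzymes of drug, steroid and lipid metabolism, among them cytochromes P450 and sulfotransferases. Enhancers of such genes often lie in introns or between genes, far from the transcript start.

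Among the largest clusters of F-only regions were those at Cyp2b9, Cux2, Bmper, Slc22a26 and Gm5356. For the last 4, the strongest F-only region was taken by its mean rank in the 2 female lists, and its central 300 bp are printed here. By fold enrichment another F-only region at Bmper was higher, at 3.10 in B6 and 2.89 in CAST against 2.76 and 2.45. Windows are centred on the region, not on the peak summit, and are given on the plus strand of mm9 (NCBIM37), a B6 genome. CAST alleles are not shown. Capitals mark matches on either strand to a fixed set of short consensus motifs, STAT5 (TTCNNNGAA), HNF6 (ATCAAT), C/EBP (TTGCNNAA) and others listed further on, with N for any base.
Cux2 cluster, chr5:122475769-122476068: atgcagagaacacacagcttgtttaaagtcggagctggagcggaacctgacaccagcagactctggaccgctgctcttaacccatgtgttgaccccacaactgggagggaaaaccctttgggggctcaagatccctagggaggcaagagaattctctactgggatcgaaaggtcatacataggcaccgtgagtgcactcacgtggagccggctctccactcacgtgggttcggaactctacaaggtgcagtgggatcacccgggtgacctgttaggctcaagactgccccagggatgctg
Bmper cluster, chr9:23156882-23157181: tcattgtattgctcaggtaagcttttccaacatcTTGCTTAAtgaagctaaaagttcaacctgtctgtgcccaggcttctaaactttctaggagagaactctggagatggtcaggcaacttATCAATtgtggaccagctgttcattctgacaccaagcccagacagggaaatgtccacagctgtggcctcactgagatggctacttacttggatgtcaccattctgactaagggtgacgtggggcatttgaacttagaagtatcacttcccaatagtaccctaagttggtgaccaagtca
Slc22a26 cluster, chr19:7875613-7875912: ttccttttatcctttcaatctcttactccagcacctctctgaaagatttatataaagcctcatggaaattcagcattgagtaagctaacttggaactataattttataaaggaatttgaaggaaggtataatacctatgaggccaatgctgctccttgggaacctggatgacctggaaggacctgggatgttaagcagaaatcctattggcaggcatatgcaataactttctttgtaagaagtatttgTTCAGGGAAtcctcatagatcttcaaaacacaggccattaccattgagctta
Gm5356 cluster, chr8:91699911-91700210: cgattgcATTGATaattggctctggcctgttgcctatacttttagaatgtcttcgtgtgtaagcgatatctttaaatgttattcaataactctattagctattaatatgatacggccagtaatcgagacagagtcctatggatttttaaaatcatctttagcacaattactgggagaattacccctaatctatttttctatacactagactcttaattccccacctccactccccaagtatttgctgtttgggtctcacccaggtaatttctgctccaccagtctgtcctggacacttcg
The Cux2 window came from an intronic region 21.5 kb from a start, had the highest GC content of the 4 (56.0%) and held no match. The Bmper window, from an intronic region 129 kb downstream of the start, held 1 C/EBP and 1 HNF6 match. A STAT5 match stood in the Slc22a26 window, from a region whose near edge is 0.712 kb downstream of the start. The Gm5356 window, between coding genes, held 1 HNF6 match. These are matches of letters and not known binding sites.

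F-only regions were short, weak and mostly distal. Their median width was 468 bp (quartiles 366 and 624), against 507 bp for M-only regions and 1361 bp for the 47477 regions called in all 4 lists. More than 2.5 kb from any coding transcript start lay 1275 regions, 90.2% (88.6 to 91.7), which compares with 92.0% of M-only regions (90.9 to 93.0) and 68.9% of regions called in all lists. By position, 681 (48.2%) were intronic, 486 (34.4%) lay between coding genes and 108 (7.64%) overlapped an exon, all beyond 2.5 kb of a start. A further 123 lay within 2.5 kb of a start and 15 (1.06%) over a start, where the share was 21.8% for regions called in all lists. The median distance to the nearest coding start was 21.9 kb, with 845 regions downstream and 553 upstream of it. The share of union regions that were F-only ran from 0.904% on chromosome 13 to 1.47% on chromosome 6. The X chromosome was left out by the rule and held 59 such regions of 1732.

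Of the 15 regions over a coding start, 0 were at a gene of the lists of female-predominant genes used further on. The strongest was at Gmfg, a glia maturation factor family gene, at percentiles 60.9 in the B6 and 50 in the CAST female list, followed by Gata2, a GATA transcription factor gene (35.4 and 53.3), Rgs3, a regulator of G protein signalling (38.7 and 48.7), and the receptor gene Notch3 (45.6 and 38.7). These 4 were named after their values were seen. Here and below a percentile ranks the score of a peak within its own list, so that 100 is the strongest peak of that list.

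In both strains these were calls from the weaker part of the list. The median percentile was 20 in the B6 female list (quartiles 9.40 and 32.9) and 20.5 in the CAST female list (9.68 and 33.9), and the median fold enrichment over local background was 2.08 and 2.15. M-only regions stood at medians of 20.6 and 23.7 in their own lists. In the top 50% of both female lists were 43 F-only regions, 301 were at or above the 25th percentile in both, and 0 were in the top 25% of both. At least 3-fold enrichment in both lists was found for 18 regions. The rank order was only partly shared between strains: the Spearman correlation of the percentiles across the 1413 regions was 0.31, against 0.84 across regions called in all lists and 0.33 for the male percentiles of M-only regions. Each is across regions of the same pair of pooled lists, and the F-only regions span a narrower range of strength. The score was higher in B6 for 688 regions and in CAST for 725. Summits of the B6 and CAST peaks were a median of 96.0 bp apart, and within 200 bp for 74.7%. At the edge of the rule, 6 F-only regions lay within 10 bp of a male peak, with median percentiles of 14.4 and 17.7, and 1 region was left out for a male overlap of at most 10 bp, at 7.62 and 0.423.

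**Figure D1:**
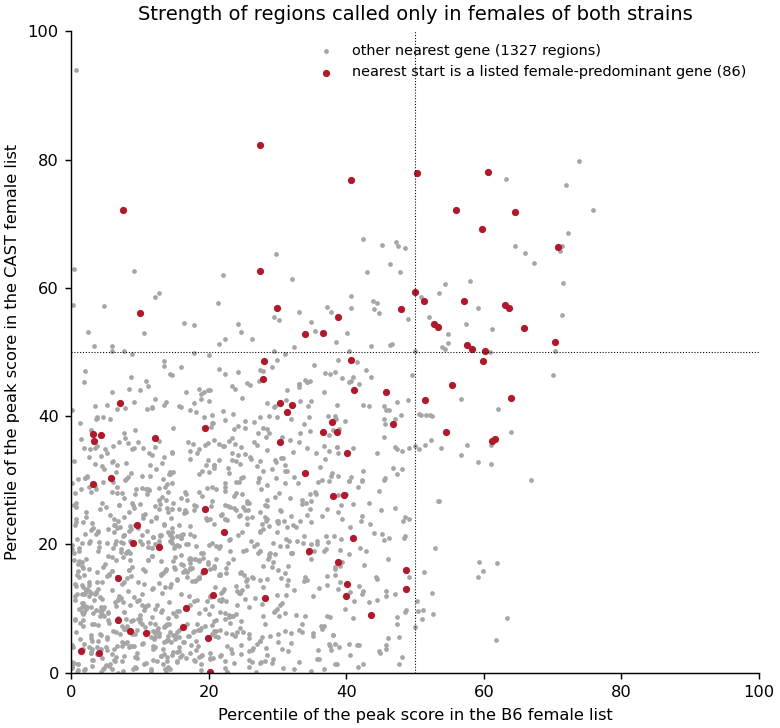
Percentile of the peak score in the B6 female list (x axis) against that in the CAST female list (y axis) for the 1413 F-only regions, 1 point each, with dotted lines at 50. Most points lie below 50 on both axes, 43 lie at or above 50 on both, and 86 regions whose nearest coding start belongs to a listed female-predominant gene are in red.

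How often a female-only call in 1 strain was repeated in the other varied with its strength. Female-only calls numbered 15564 in B6 (13.2% of union regions) and 13313 in CAST (11.3%), so the 1413 F-only regions were 9.08% of the former and 10.6% of the latter. M-only regions made up 17.7% of 15704 male-only calls in B6 and 13.5% of 20577 in CAST. Among B6 female-only calls, the share that was also female-only in CAST was 8.25% (7.74 to 8.79) below the 25th percentile, 10.5% (9.62 to 11.4) from the 25th to the 50th and 13.3% (10.9 to 16.1) from the 50th to the 75th. Among CAST female-only calls the shares repeated in B6 were 9.23%, 12.8% and 18.9% in the same ranges. Above the 75th percentile only 25 B6 and 27 CAST regions remained, of which 1 and 8 were repeated. A call in the male list only of the other strain was found for 1939 B6 female-only regions (12.5%), more than the 1413 with the same direction, and for 1087 CAST female-only regions (8.16%), fewer than the 1413. The lists differed in length, from 79862 peaks in male B6 to 90228 in male CAST.

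**Figure D2:**
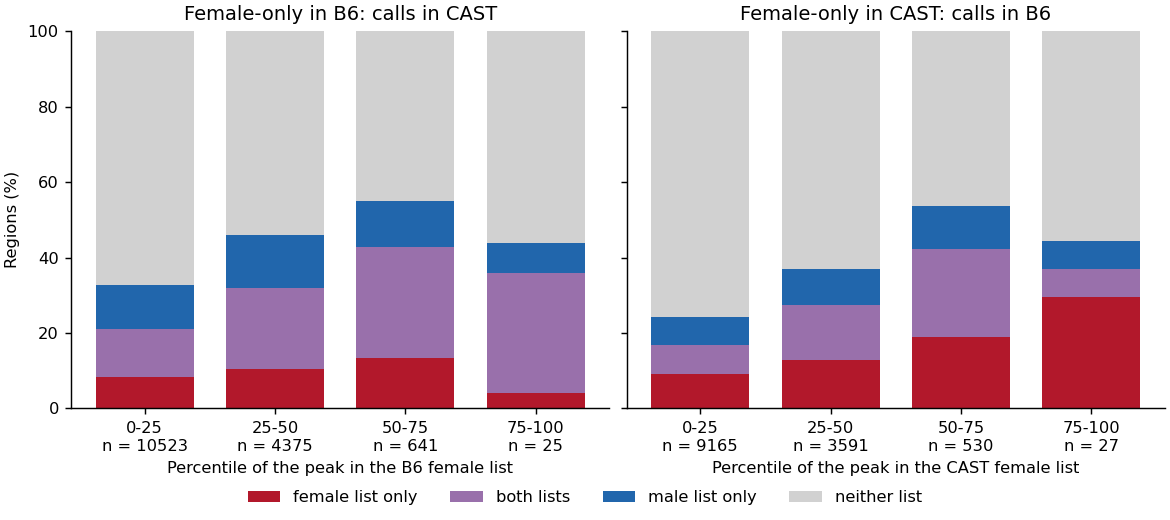
Regions called in the female but not the male list of B6 (left) or CAST (right), by the percentile of the peak (x axis, with the number of regions), and the share of them (y axis, %) called in the female list only, both lists, the male list only or neither list of the other strain. The red part, female list only, rises from 8.25% to 13.3% on the left and from 9.23% to 18.9% on the right over the lower 3 ranges. Over the same ranges the part called in both lists rises from 12.8% to 29.6% and from 7.69% to 23.4%.

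Many F-only regions lay beside a male peak rather than alone. A male peak of either strain was within 500 bp of 31.5% of them and within 1 kb of 43.3%, against 27.1% and 39.6% for M-only regions and female peaks. No male peak lay within 10 kb of 226 regions (16%). Of those 226, 38 had a listed female-predominant gene as the nearest coding start, or 16.8%, as did 86 of all 1413 (6.09%), against 0.396% of M-only regions, 1.11% of regions called in all lists and 1.21% of all union regions. In the B6 male list, peak numbers are missing at the place of 18 F-only regions, where a male peak may have been removed before deposit. Numbers missing in all were 599 in the male and 579 in the female list of B6, and 0 in both CAST lists, so the same removal cannot be seen for CAST.

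The strongest regions, ranked by the mean percentile over both female lists with at least 1.5-fold enrichment in both, included known female genes and others. Highest was chr8:92095412-92096626, between coding genes, with percentiles of 73.8 in B6 and 79.8 in CAST and fold enrichments of 4.47 and 4.87. Its nearest coding start was that of Gm5356, 384 kb away, and the nearest male peak was 45653 bp away.

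Some of the 20 strongest had a gene of a metabolic enzyme or transporter family as nearest coding start. An intronic region of Cyp2b10, a cytochrome P450 known for its induction through the xenobiotic receptor CAR, stood at 70.7 and 66.3. A region 43.8 kb downstream of the start of Cyp2b13, of the same family, stood at 50.2 and 77.9, with the nearest male peak 202302 bp away. Just upstream of Ugt2b37, a glucuronosyltransferase gene, a region stood at 71.1 and 65.7, but a male peak lay 224 bp from it. At Adh6-ps1, an alcohol dehydrogenase locus annotated as coding, percentiles were 71.3 and 66.6, with a male peak at 708 bp. Sult2a6, a sulfotransferase gene, had 1 at 56.0 and 72.1, and Slc22a26, an organic anion transporter family gene, had 1 at 64.5 and 71.8. The regulator gene Cux2 had 1 at 60.6 and 78.1.

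Other entries of the 20 had as nearest start a gene that is not on the lists of female-predominant genes. Ugt2b37 and Adh6-ps1 are not on them either, and expression of these genes was not examined. Sephs2, which makes the selenium donor for selenoproteins, had a region 0.366 kb upstream of its start at 75.8 and 72.2, only 238 bp wide, 2.20-fold and 2.13-fold enriched and 282 bp from a male peak. Parp16, an ADP-ribosyltransferase gene, had an intronic region at 63.2 and 76.9, 246 bp from a male peak. Thsd7a had an intronic region at 72.2 and 68.6 with 4.31-fold and 4.09-fold enrichment. The regions nearest St3gal5, the GM3 ganglioside synthase gene, stood at 64.5 and 66.6, and nearest Hook1 at 67.3 and 63.8, the latter 31865 bp from the nearest male peak. Bcl11a (65.9 and 65.4), Cdkal1 (71.4 and 55.7), Llph (70.4 and 50.1) and another region nearest Gm5356 (71.5 and 60.7) were also among the 20.

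Some regions ranked very differently in the strains. In the top 50% of 1 female list and the bottom 25% of the other were 37 regions, 14 of them higher in B6 and 23 in CAST. The highest percentile of any F-only region, 94.0 in CAST, was at chr16:92085997-92086237 in an exon with Slc5a3 as nearest start, and its percentile in B6 was 0.653. That region was 241 bp wide and only 1.95-fold enriched in CAST. Cyp3a44, a female-predominant P450 gene, had an intronic region at 82.3 in CAST and 27.4 in B6, with fold enrichments of 5.67 and 2.39 and the nearest male peak 74732 bp away. These examples were picked for their difference.

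Within 50 kb of another F-only region were 244 of the 1413, 17.3% (15.4 to 19.3), in 99 clusters. M-only regions, which are more numerous, were clustered for 31.5% (29.8 to 33.2). Of the female clusters 77 were pairs, 22 had 3 or more regions and 6 had 5 or more.

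The largest cluster held 9 F-only regions over 41.7 kb at Cyp2b9 (ENSMUSG00000040660.6), a cytochrome P450 gene known for female-specific expression, at chr7:26972752-27014429. It ran from inside the gene to beyond its 3' end. The span held 12 union regions, of which 9 were F-only, 3 were female-only in B6 with no call in CAST, and 0 had a male peak in either strain. Percentiles of the 9 ran from 2.43 to 59.1 in B6 and from 13 to 56.0 in CAST. The strains did not order them alike: the region 27.9 kb from the start stood at 9.99 in B6 and 56.0 in CAST, and the region 40.1 kb from it at 48.7 and 16. No region was called within 1 kb of the Cyp2b9 start in any list.

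Cux2 (ENSMUSG00000042589.9), which encodes the female-enriched repressor of male-biased genes, had 7 F-only regions over 99.8 kb in its body on chromosome 5. Unlike Cyp2b9 the span was also marked in males, and 4 of its 15 regions had a male peak, 3 of these in every list. The strongest F-only region (60.6 and 78.1) lay 243 bp from a male peak. The region called in all lists next to it stood higher in females, at 86.9 against 66.8 in B6 and at 85.1 against 34.8 in CAST, and its fold enrichment was higher in females of both strains too. Another shared intronic region, 14.8 kb upstream of a start, stood at 80.4 against 54.3 in B6 and 77.6 against 13.9 in CAST, but its fold enrichments were 3.17 in females against 3.20 in males of B6 and 3.10 against 2.18 in CAST. The remaining shared region, at 23.5 kb, went the other way, at 50.5 in females against 57.3 in males of B6 and at 38.3 against 66.9 in CAST, and its fold enrichments were lower in females as well (2.37 against 3.05 in B6 and 2.43 against 3.65 in CAST).

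Bmper (ENSMUSG00000031963.7), a secreted regulator of bone morphogenetic protein signalling, had 7 F-only regions over 63.6 kb, all between 125 and 187 kb downstream of its start. They ranked from 3.19 to 58.3 in B6 and from 6.43 to 72.2 in CAST. The 2 regions of the span with a call in all lists stood above the male rank in each strain, at 90.4 against 87.7 and 78.8 against 77.3 in B6 and at 92.2 against 88.7 and 86.5 against 72.9 in CAST. Their fold enrichments went the other way and were lower in females, at 5.25 against 5.69 and 4.17 against 4.59 in B6 and at 4.48 against 6.43 and 4.22 against 4.27 in CAST. The sex in which these regions were stronger thus depends on the measure.

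Slc22a26 (ENSMUSG00000053303.8) had 5 F-only regions over 41.7 kb, the strongest of them 0.712 kb downstream of the start. The region over the 5' flank, 0.222 kb upstream, was called in both sexes of B6 (57.5 in females, 50.5 in males) and in females alone of CAST (71.4). Its fold enrichment in B6 was lower in females, at 2.64 against 3.05, and was 3.34 in female CAST.

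Sall1, a zinc finger transcription factor gene, is on the list of female-predominant regulators used further on and had 0 F-only regions within 10 kb of its body. The cluster named for Gm5356 lay in a long interval with few coding genes, between Sall1 (chr8:91551147-91568061) and Tox3 (chr8:92771013-92872151). All 11 F-only regions with Gm5356 as nearest start lay between coding genes in this interval, 5 of them in the cluster at chr8:91645601-91742471, 3 and 2 in smaller clusters and 1 by itself, which is the highest-ranked F-only region given above. Gm5356 itself is a short annotated gene (chr8:91710842-91711459), and being nearest says nothing about which gene a region acts on. The 11 ranked from 2.64 to 73.8 in B6 and from 10.6 to 79.8 in CAST.

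Among the smaller of the 10 largest clusters, those beside Sult2a6 and Acot1 lay at gene families of sulfate conjugation and acyl-CoA hydrolysis. The 4 regions 37.6 to 51.6 kb from the Sult2a6 start had no male peak in their span and stood at 19.4 to 63.6 in B6 and 22 to 72.1 in CAST. The 3 around Acot1 stood at 46.7 to 59.9 and 35.0 to 48.6, and the shared region over the Acot1 start ranked above its male counterpart in B6 (60.5 against 48.7) and in CAST (66.8 against 54.9), with fold enrichments of 2.87 against 2.76 and of 3.23 against 3.11. The 4 regions in Fto, an RNA demethylase gene, were weak (0.0158 to 23.5 and 1.08 to 17), and the span also held an M-only region and male calls at 8 of 14 regions. The 4 near Mafk, Ints1, Tmem184a and Psmg3 were weak too (8.72 to 33.3 and 10.0 to 46.1), between strong promoters called in all lists.

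**Figure D3:**
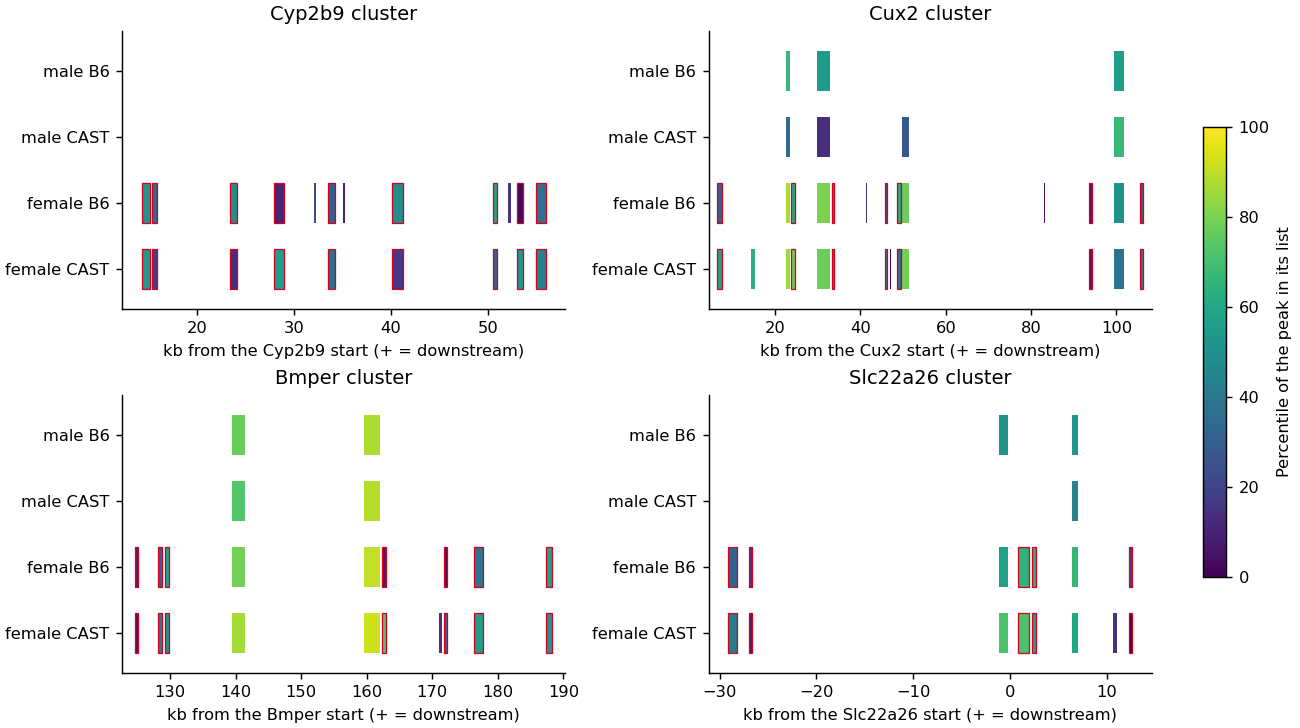
Union regions in the span of 4 clusters, drawn in each list that called them against the distance (kb) from the gene's start, positive downstream. Fill colour is the percentile of the peak in its list and a red edge marks F-only regions. No bar stands in the male rows at Cyp2b9, while 4 regions at Cux2 and 2 each at Bmper and Slc22a26 have a male peak.

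Genes known for higher expression in female liver were then counted, in 6 lists by function. All gene lists, also where used above, were chosen with earlier results of these data known, so their shares are a description. A coding autosomal gene had an F-only region within 10 kb of its body in 5.10% of 21418 cases and an M-only region in 9.10%. Of 114 listed female genes 38 (33.3%) had an F-only and 8 (7.02%) an M-only region. Of 61 male-predominant genes 2 (3.28%) had an F-only and 26 (42.6%) an M-only region. The 2 were Aox3, an aldehyde oxidase gene, and Egfr, the epidermal growth factor receptor gene, which also had 4 M-only regions. Within 50 kb, F-only regions were found at 49 (43.0%) of the female genes against 10.6% of all coding genes. Listed female genes were longer (median 37.1 kb) than all coding genes (15.5 kb), and genes with an F-only region longer still (57.0 kb). The part of gene length in these shares was not tested. In single strains the female genes were marked more often, 80 with a female-only region in B6 and 79 in CAST, and 46 and 49 with a male-only one. Of all 21418 coding genes, 6987 had a female-only region in B6 and 6277 in CAST, and 6816 and 8149 had a male-only one.

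Among the cytochrome P450 genes, 10 of 20 had an F-only and 1 had an M-only region. A peak within 1 kb of the start was called for 13 of the 20 in each female list, and for 8 in male B6 and 6 in male CAST. At Cyp2c40, Cyp2c69 and Cyp4a31 the strongest region at the start is itself F-only, so this difference in part restates the rule. The other 5 female lists showed smaller differences by sex or none. In female and male B6, starts were marked at 10 and 11 of 18 conjugation genes, 19 and 17 of 20 lipid genes, 9 and 9 of 12 transporter genes, 13 and 13 of 14 regulators and 26 and 25 of the 30 remaining genes. In female and male CAST the numbers were 13 and 11, 17 and 17, 9 and 7, 13 and 13, and 25 and 25. Over all coding genes, 58.5% and 58.4% of starts were marked in female and male B6 and 59.9% and 60.6% in CAST. At Cyp2c40 and Cyp2c69, female-predominant members of the arachidonic acid metabolising Cyp2c family, the F-only region was the single region called in any list within 10 kb. It lay inside the gene near the start in both, at 51.3 and 57.9 for Cyp2c40 and at 36.6 and 37.5 for Cyp2c69. Cyp4a31 and Cyp4a10, fatty acid hydroxylase genes that sit next to each other, had 1 F-only region each, at 60.1 and 50.2 and at 54.5 and 37.6. The strongest region at the Cyp4a10 start ranked 79.1 in female and 35.0 in male B6, and 76.8 in female CAST with no male call, with a fold enrichment of 5.08 in female and 2.58 in male B6. These families hold near-identical copies, where uniquely mapped reads can be few.

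Conjugation genes had F-only regions at 4 of 18, among them Sult2a6, the estrogen sulfotransferase gene Sult1e1 (48.0 and 56.7) and Sult1a1 (33.9 and 52.8), and M-only regions at 0. Lipid genes had them at 7 of 20. Cers6, listed in the annotation as Lass6 and encoding a ceramide synthase, had 4 across its body of 253 kb. Cd36, the fatty acid uptake receptor, had 1 in an intron at 65.8 and 53.7, Acot2, a mitochondrial acyl-CoA thioesterase gene, 1 at 59.9 and 48.6, and Mfsd2a, a lysolipid transporter gene, a pair whose strongest was at 20.6 and 12.1. Transporters had them at 4 of 12, Slc22a26, Slc22a27, Slc16a5 and the calcium pump gene Atp2b2.

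Regulators had F-only regions at 6 of 14 and M-only ones at 3. After Cux2 came Trim24, a nuclear receptor cofactor gene (2 F-only and 1 M-only), and Setbp1 (2), and then with 1 each Esr1, the estrogen receptor gene, Prlr, the prolactin receptor gene, and Fkbp5, a cochaperone gene of the glucocorticoid receptor. Trim24 is listed for its expression in B6 females, and expression in CAST was not analysed here for it or any listed gene. All 6 are long genes with many regions called in males, from 11 at Cux2 to 40 at Prlr. Among the remaining female genes 7 of 30 were marked. A1bg, a plasma glycoprotein gene of only 3.68 kb, had 3, and no male peak of either strain lay within 10 kb of it. Sybu had 1 at 53.3 and 53.9, and Ctsc, the cathepsin C gene, 1 at 61.6 and 36.4.

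The growth hormone pathway genes themselves were marked by both classes. F-only regions lay at 4 of 17 (23.5%) and M-only regions at 5 (29.4%), against 5.10% and 9.10% of all coding genes. Besides Cux2, which also had 1 M-only region within 10 kb of its body, the 4 were Ghr, the hormone's receptor (2 F-only, 3 M-only and 93 union regions in all), the signal transducer Stat5b (1 F-only, 1 M-only) and its feedback inhibitor Socs2 (1 F-only). At Socs2 that region stood at 31.5 and 14.4. The strongest region at the Stat5b start ranked 94.4 and 94.2 in male and female B6 and 94.7 and 92.1 in CAST.

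Markers of liver cell types were looked at because whole liver was used, in which a change in the share of a cell type and a change of the mark within cells cannot be told apart. The start was marked within 1 kb for 9 of 10 hepatocyte markers in every list, for 7 of 8 endothelial markers in every list, and for at most 1 of 7 Kupffer cell and 1 of 8 lymphocyte markers in any list. Stellate cell markers were marked for 3 of 8 and bile duct cell markers for 4 of 8, in every list. F-only regions lay within 10 kb of 0 of the Kupffer, stellate, bile duct and lymphocyte markers, of 1 endothelial marker (Fcgr2b, at 43.5 and 46.1) and of 2 hepatocyte markers, the urea cycle genes Cps1 (29.3 and 2.21) and Ass1 (16.8 and 7.58). M-only regions lay at 2 of the 8 endothelial markers, 1 of the 10 hepatocyte markers and 0 of the rest. With 5.10% and 9.10% of all coding genes marked, a count of 0 in lists of 7 or 8 genes is close to the background, and these lists are too short to show a difference from it.

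**Figure D4:**
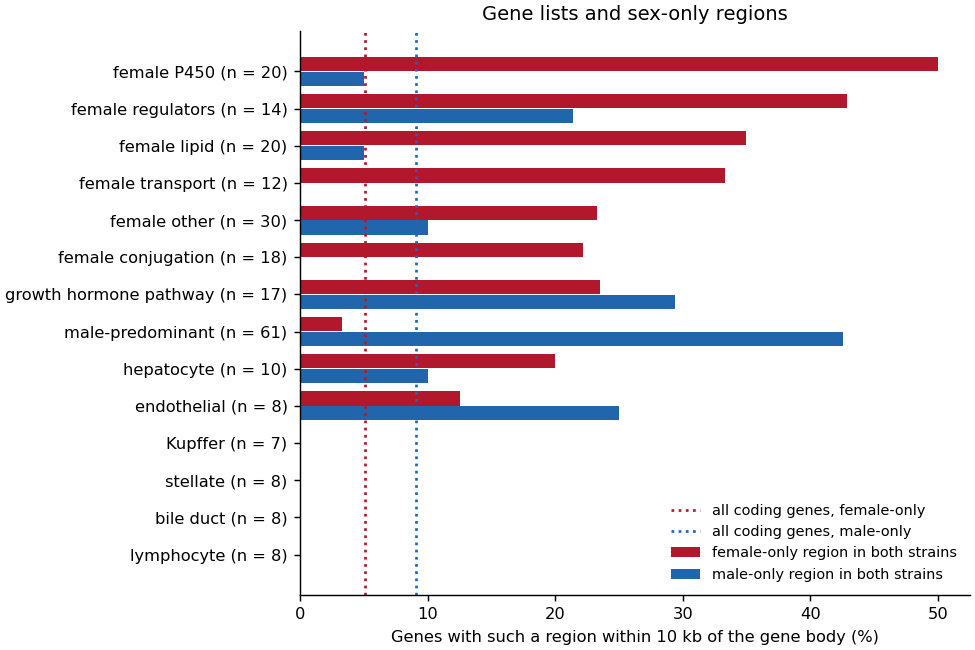
Share of the genes of each list (x axis, %, with the number of genes) that have an F-only (red) or M-only (blue) region within 10 kb of the gene body. Dotted lines give the shares over all coding autosomal genes, 5.10% and 9.10%; the 6 female lists reach 22.2% to 50% for F-only regions.

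Without regard to lists, 1092 coding genes had an F-only region within 10 kb, 121 had 2 or more (0.565%) and 26 had 3 or more (0.121%). The 1413 regions had 1206 different nearest coding genes, 1062 of them with a single region, so most F-only regions stood by themselves at their gene. Behind the clusters above, 5 regions had Zfp36l1, an RNA-binding protein gene, as nearest start, and 4 had Trim24. Thada, Snd1 and Nfia, the last a transcription factor gene, had 3 or 4 regions within 10 kb of long bodies of 276 to 460 kb, and Snd1 and Nfia had M-only regions as well. These genes were chosen after their counts were seen. By nearest start, 1 F-only region fell to a listed male gene, against 70 M-only regions (2.52%) and 0.644% of all union regions, and 11 M-only regions fell to a listed female gene.

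Regions called in all 4 lists were not used by the rule, and their ranks near F-only regions were set beside those elsewhere. Over all 47477 the female percentile minus the male percentile had a median of 0.03 in B6 and -1.56 in CAST. Within 10 kb of an F-only region the medians were 0.41 and -0.73 (1625 regions), and 24.9% ranked higher in females of both strains, against 19.9% of all, while 27.5% ranked higher in males of both, against 31.9% of all. Near an F-only region in a cluster of 3 or more the medians were 3.97 and 2.38. Of these 60 regions, 24 ranked higher in females of both strains and 18.3% higher in males of both. Near an F-only region in the top 50% of both lists they were 4.10 and 1.04 (47 regions). Around M-only regions the medians were -0.14 and -2.37 (2951 regions). On fold enrichment, a comparison added after seeing the data, the shares near F-only regions stood closer to those over all regions. The median log2 ratio of the female to the male fold enrichment was 0.01 in B6 and -0.08 in CAST over all, 0.01 and -0.05 within 10 kb of an F-only region, and 0.02 and -0.05 within 10 kb of an M-only region. The share higher in females of both strains was 18.4% over all, 21.1% near F-only and 21.9% near M-only regions. Near clusters of 3 or more the median ratios were 0.02 and -0.05. There 28.3% were higher in females of both strains, against 18.4% over all, and 31.7% higher in males of both, against 32.0% over all. Females thus led males there by rank but not by fold enrichment, while the female share was above that over all on both measures. Near F-only regions in the top 50% of both lists the ratios were 0.03 and -0.01, with 36.2% higher in females and 34.0% higher in males of both, against 32.0% higher in males over all. None of these differences has a replicate behind it.

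**Figure D5:**
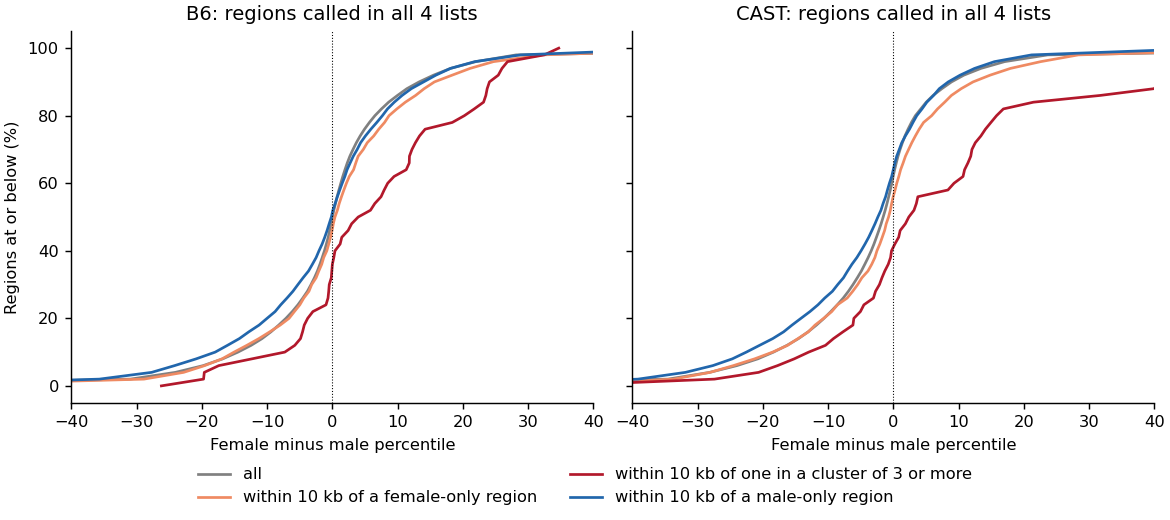
Cumulative share (y axis, %) of regions called in all 4 lists against their female minus male percentile (x axis), in B6 (left) and CAST (right), for all such regions, those within 10 kb of an F-only region, of an F-only region in a cluster of 3 or more, or of an M-only region. The curve for clusters lies to the right over most of its range, with medians of 3.97 and 2.38.

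Sequence content was compared last, in the central 300 bp of every union region. GC content had a median of 46.3% in F-only and M-only regions and 49.0% in regions called in all lists. The STAT5 letters TTCNNNGAA were found in 8.28% of F-only windows (117; 6.95 to 9.83), in 9.86% of M-only windows (8.81 to 11), in 8.89% of windows called in all lists and in 9.26% of all windows. Those that also read TTCCTNGAA, a BCL6 form within the STAT5 motif, were 1.70% and 1.87% of F-only and M-only windows. HNF6 letters ATCAAT stood in 9.84% (139; 8.39 to 11.5) of F-only, 10.5% of M-only and 9.30% of all windows, and in 8.61% (8.37 to 8.87) of those called in all lists. The CUX2 form ATCGAT stood in 1.34% of F-only, 1.01% of M-only and 0.987% of all windows. FOXA letters TGTTTAC stood in 5.73% of F-only (4.64 to 7.07), 4.50% of M-only (3.79 to 5.33) and 5% of all windows, and C/EBP letters TTGCNNAA in 11.5%, 13.1% and 12.9%. HNF4A (CAAAGTCCA) was found in 0.708% of F-only, 0.720% of M-only and 0.873% of all windows, and ETS (CCGGAAGT) in 0.283%, 0.252% and 0.788%. The HNF1, CTCF, estrogen response element and DR1 motifs matched at most 2 F-only windows each. The intervals of the F-only and M-only classes overlapped for STAT5, HNF6, FOXA and C/EBP. Windows of the same length at the peak summit, tried after seeing the data, changed how F-only regions stood to those called in all lists, a class of wider regions. There STAT5 letters were found in 9.20% (7.80 to 10.8) of F-only against 8.37% (8.12 to 8.62) of those called in all lists, with the order turned from that at the centre. C/EBP letters turned as well, from 11.5% against 12.9% at the centre to 12.4% (10.8 to 14.2) against 10.3% (10.0 to 10.6). HNF6 letters stood in 10.1% (8.65 to 11.8) against 6.48% (6.26 to 6.70), and FOXA letters in 5.31% (4.26 to 6.60) against 3.90% (3.73 to 4.07). M-only windows at the summit were at 9.68%, 12.6%, 10.8% and 4.46% for these 4 motifs, each within the interval of the F-only share. Both strands were searched, and a window without a match says only that these letters are not in it.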

How the data were processed

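H3K27ac ChIP-seq peaks of 20 livers (5 per sex and strain, with 4 inputs) were analysed as 4 lists. According to the study's methods, the authors mapped unique reads with Bowtie2 to mm9 (B6) or to a CAST genome made from mm9, converted CAST peaks to mm9, called peaks with MACS2 on the livers of a group merged at the read level, and removed blacklisted regions and peaks of duplicate reads; gaps in the peak numbers show removal in the B6 lists but not in the CAST lists. The deposited score (−log10 q times 10, rounded down), the deposited fold enrichment (a ratio to local background) and the deposited −log10 p, which broke ties in the score, were used, and no read counts; library depth was not analysed here.

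Percentiles of the score within a list, union regions, clusters (gaps of at most 50 kb) and distances to GENCODE vM1 coding starts (NCBIM37, the same build) were computed with Python 3.11.15, pandas 2.3.3 and SciPy 1.17.1; the code was tested on simulated lists. Named are the 20 strongest regions, the 10 largest clusters and up to 25 list genes with most regions (ties by the strength of the strongest region, set afterwards), plus genes that complete a count of 5 or fewer and others chosen after their values were seen, such as Cyp2c69 and Slc5a3. Some of these genes, regions and sequences are not reported here. The members and lists were chosen with earlier results of these data known. Older gene symbols were matched through RefSeq synonyms. Other merging, absence, q, strength, length and distance settings were tried as alternatives.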

Additional observations from a re-analysis of the deposited data

How the results depend on the processing

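Few values are fixed independently of the settings. F-only regions numbered 1089 when gaps of up to 500 bp between peaks were bridged and 1435 with lists cut to equal length, both within 1.5 times of 1413. They fell to 801 (M-only 1679) when no peak of the other sex was allowed within 1 kb, to 838 (M-only 2080) at −log10 q of 5 or more, to 43 (86) in the top 50% of both lists, to 18 (53) at 3-fold enrichment in both, and to 226 with no male peak within 10 kb. M-only regions outnumbered F-only regions wherever both were counted. The distal share, 90.2%, was 92.5% with gaps bridged, 90.3% at equal length, 91.8% with no peak of the other sex within 1 kb, 88.5% at the stricter q, 81.4% in the top 50%, 77.8% at 3-fold, 91.2% with no male peak within 10 kb and 84.5% with transcript starts of all gene types. The clustered share was 15.1% with merging, 15.0% at 1 kb, 12.8% at the stricter q and with no male peak within 10 kb, 22.2% at 3-fold, and 10.3% and 28.9% with cluster gaps of 20 kb and 100 kb. Female genes with a region within 10 kb were 12 in the top 50%, 6 at 3-fold and 14 with no male peak within 10 kb, against 38, and 26 to 49 under the other settings. Windows of 200 bp, being shorter, held STAT5 letters in 5.59% and HNF6 letters in 6.30%; windows at the summit held them in 9.20% and 10.1%. Leaving out the 18 regions at missing peak numbers left 1395. The 18 regions, the 10 kb limit, the summit windows and the comparison of shared regions by fold enrichment were chosen after seeing the data. No paired analysis was possible because the 5 livers of a group were merged before peak calling, so replicate numbers are not carried by the lists; for the same reason no liver could be left out. The causes of these shifts were not tested, and absence from a list cannot be told from a peak just under its threshold.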
